A study of Mus musculus with 8 samples.

Results

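Transcripts of glycolysis and of the response to low oxygen were followed in stimulated splenic CD4+ T cells. The set was a list of 38 genes for glucose uptake, the glycolytic enzymes, lactate and pyruvate handling, oxygen sensing and targets of hypoxia-inducible factor (HIF). A value was found for 33 of them, among 22180 genes named on the arrays, and 32 were bright enough to be tested, among 13508 tested genes. Each gene was read from its brightest transcript cluster, a set of probes for a single transcript region, that carried only that gene's symbol. The genes Aldoa, Bnip3l and Ankrd37 had only clusters shared with another symbol, Gpi1 and Eno1 were not named by the annotation used here, and Ero1l was found under its present symbol Ero1a.

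The cells were CD4+CD25- T cells sorted from spleens of C57BL/6 mice aged 6 to 8 weeks, either wild type or CCR2-/-. CCR2 is the receptor for the chemokine CCL2, and CD45RB is a form of the surface phosphatase CD45 carried at a high level by naive T cells and at a lower level by antigen-experienced cells. The 4 groups were wild-type CD45RBhigh, wild-type CD45RBlow, CCR2-/- CD45RBhigh and CCR2-/- CD45RBlow, with 2 arrays each, numbered replicate 1 and replicate 2 after the sample titles. All groups were stimulated on plates with antibodies to CD3 and CD28, for 48 h according to the sample protocols and for 2 h according to the series design, and no unstimulated cells were measured. The labels do not say whether replicates came from separate mice or pools, so the p-values cover the spread among these arrays alone.

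Glycolysis splits glucose into pyruvate, and activated T cells are known to take up more glucose and to release much of its carbon as lactate. HIF-1, a transcription factor whose alpha subunit is encoded by Hif1a, raises transcription of most glycolytic enzymes and of genes for oxygen supply and mitochondrial turnover. When oxygen is present, prolyl hydroxylases encoded by Egln1 and Egln3 mark the alpha subunit for degradation, and several of these hydroxylases are themselves induced by HIF.

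HIF binds DNA at a short core, searched here as ACGTG on both strands of the 250 bases before each annotated start, the most upstream listed start where a gene had several. The core is part of the E-box CACGTG, at which it counts on both strands. It occurred in 17 of 31 members with a promoter sequence (54.8%), compared with 20.8% of such windows of tested genes and 16.5% of all 27025 windows. The E-box occurred in 5 members (16.1%), compared with 8.09% of the windows of tested genes. These are matches of letters, not sites of binding. The windows below, from RefSeq on mouse GRCm38.p6 and written 5′ to 3′ on the gene's strand with matches in capitals, belong to Egln3 and Vegfa, on which the subset results turn, and to Ldha and Pgk1, enzymes of the pathway with several matches. They cover chr12:54203875-54204124 (minus strand) for Egln3, chr17:46032378-46032627 (minus strand) for Vegfa, chr7:46845554-46845803 (plus strand) for Ldha and chrX:106186850-106187099 (plus strand) for Pgk1.
Egln3: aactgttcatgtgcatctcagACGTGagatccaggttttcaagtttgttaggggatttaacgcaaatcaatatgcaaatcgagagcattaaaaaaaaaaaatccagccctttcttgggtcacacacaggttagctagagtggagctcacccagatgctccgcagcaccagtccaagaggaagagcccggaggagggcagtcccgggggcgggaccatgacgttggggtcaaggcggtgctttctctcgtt
Vegfa: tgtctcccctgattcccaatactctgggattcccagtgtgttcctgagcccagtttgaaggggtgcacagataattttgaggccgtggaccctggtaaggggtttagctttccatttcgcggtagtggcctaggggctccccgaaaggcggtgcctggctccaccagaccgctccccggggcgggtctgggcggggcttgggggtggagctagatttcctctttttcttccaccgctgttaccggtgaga
Ldha: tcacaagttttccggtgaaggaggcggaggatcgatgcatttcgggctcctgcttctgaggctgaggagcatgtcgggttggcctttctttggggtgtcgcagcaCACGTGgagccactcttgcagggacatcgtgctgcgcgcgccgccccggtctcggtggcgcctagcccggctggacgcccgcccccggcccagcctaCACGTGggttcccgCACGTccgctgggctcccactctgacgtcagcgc
Pgk1: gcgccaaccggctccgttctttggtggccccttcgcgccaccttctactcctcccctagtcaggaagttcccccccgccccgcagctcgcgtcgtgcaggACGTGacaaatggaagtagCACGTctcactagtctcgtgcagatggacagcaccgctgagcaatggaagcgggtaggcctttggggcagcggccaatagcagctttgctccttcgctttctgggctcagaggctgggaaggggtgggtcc
Egln3 held 1 match, 224 bases before its start, and Vegfa held 0 in this window. Ldha held 5 and Pgk1 held 2.

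Values are log2 expression on which a difference of 1 is a 2-fold change, and array medians lay between 4.92 and 5.05. Arrays of the same group correlated at r = 0.984 to 0.994 across transcript clusters. The 8 measured markers of CD4 T cells averaged 11.25 to 11.37 on CD45RBhigh and 11.09 to 11.19 on CD45RBlow arrays. Of these, only 2 had a difference below 0, and 1 was called lower in CD45RBlow (1.93% of all tested genes were). Over the 8 arrays Trat1 spanned 9.13 to 11.93, and Cd4 11.54 to 11.74. The 9 measured cell cycle genes averaged 11.28 to 11.46. The transcript of Ccr2 lay at 4.26 to 4.61 on the wild-type arrays and at 4.62 to 5.15 on the CCR2-/- arrays, near the low-value limit of 4.53 to 4.63. Since neither the deleted part of the gene nor the probes' positions are given in the sources used here, these values do not check the genotype labels, and genotype directions rest on the labels. Replicate 2 arrays differed from replicate 1 arrays in sex-linked genes: Xist lay at 4.45 to 5.02 in replicate 1 and at 11.74 to 12.07 in replicate 2, and the Y-linked Kdm5d at 8.83 to 9.13 and at 7.58 to 7.78, so the arrays of a group did not hold the same RNA. The difference between replicate numbers correlated between every pair of groups (6 correlations from 0.11 to 0.53), so a fit that takes out the replicate number as a block is also given where it changes a call.

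Most of these genes were highly expressed in all 4 groups. Percentiles here are over all 41034 transcript clusters of an array, 15699 of them unnamed, and are not ranks among the tested genes. Of the 33 found, 15 lay above the 90th percentile of their array on all 8 arrays, 25 above the 75th and 31 above the 50th. The 15 were the glucose transporter Slc2a1, the phosphofructokinase genes Pfkp and Pfkl, the enzyme genes Tpi1, Gapdh, Pgk1, Pgam1, Pkm and Ldha, the lactate transporter Slc16a1, the pyruvate dehydrogenase kinase Pdk3, the oxygen-sensing genes Hif1a and Egln3, the collagen prolyl hydroxylase P4ha1 and the endoplasmic reticulum oxidase Ero1a. Only 2 lay under the 50th percentile on some array, P4ha2, between 4.48 and 5.09, and the mTOR inhibitor gene Ddit4l, which at 3.84 to 4.13 was below the limit on every array and was not tested. The median range of a tested member over the 8 arrays was 0.53, compared with 0.48 for all tested genes. Ranges over 1 log2 unit were seen for 5 of the 32 tested members (Aldoc, Egln3, Bnip3, Vegfa and Ndrg1) and for 8.85% of all tested genes.

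**Figure D1:**
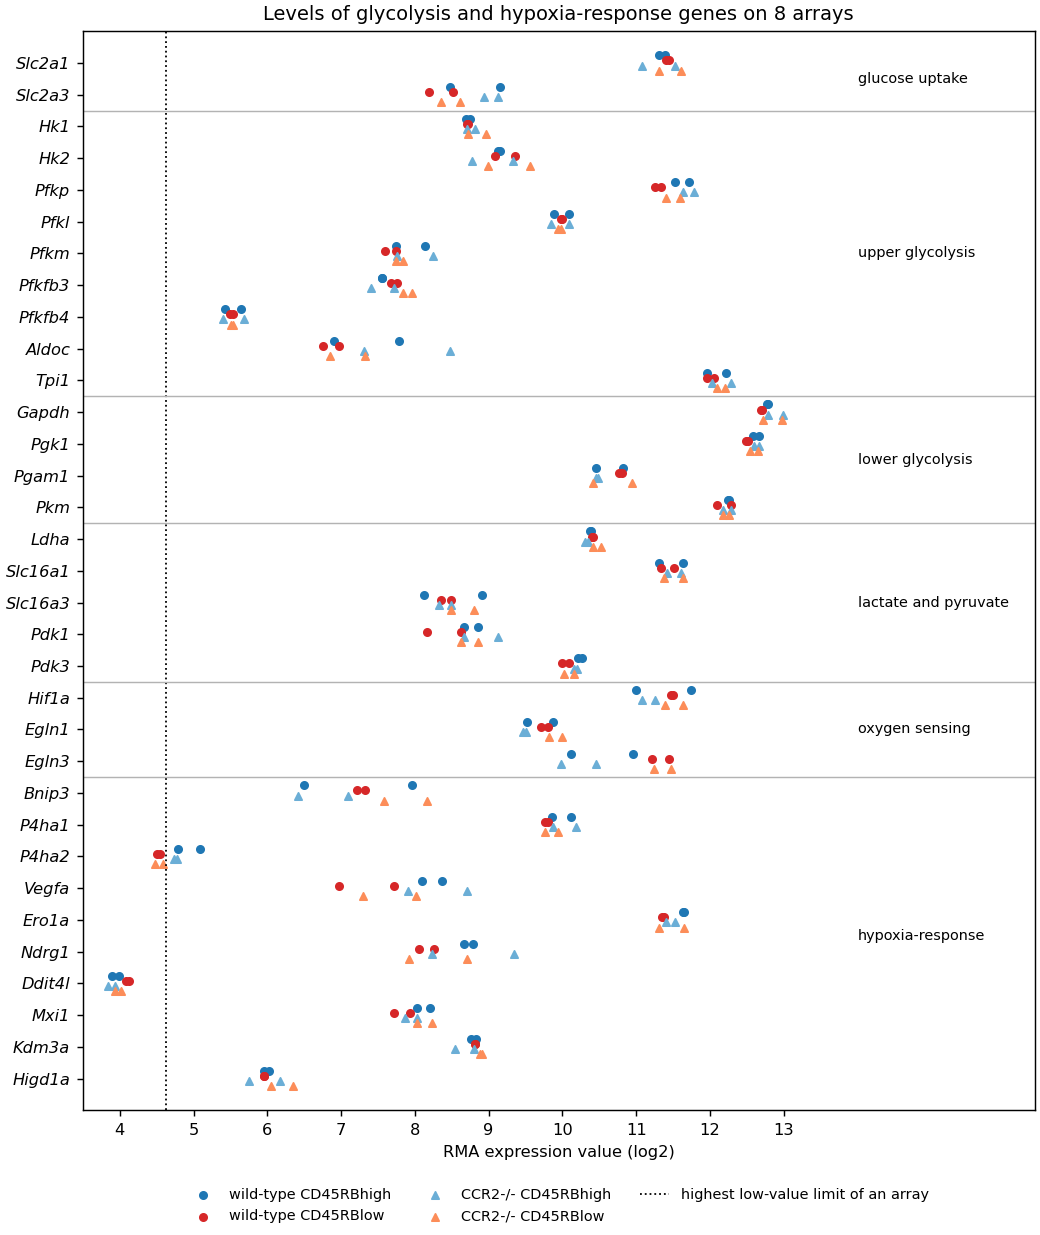
Deposited RMA log2 values (horizontal axis) of the 33 genes on each of the 8 arrays, arranged by role. Each point is an array, circles are wild type and triangles CCR2-/-, blue shades are CD45RBhigh and red or orange shades CD45RBlow, and the dotted line is the highest low-value limit of an array (4.63). The core enzymes Gapdh, Pgk1, Pkm and Tpi1 are tight clusters of points near the right, whereas Egln3, Vegfa, Aldoc, Bnip3 and Ndrg1 spread over more than 1 log2 unit.

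CD45RBlow and CD45RBhigh cells differed little in the core glycolytic enzymes, and the largest differences lay in Egln3 and Vegfa. Averaged over genotypes, Egln3 was 1.95-fold higher and Vegfa 1.70-fold lower in CD45RBlow cells, in 4 of 4 pairs of arrays of the same genotype and replicate number. Without a block, 0 of 32 members passed an adjusted p of 0.05 (limma, Benjamini-Hochberg over all tested genes), where 3.03% of all tested genes (409) passed. The number of genes called moved in both directions when 1 array was left out, which also leaves its group with 1 array. With the replicate number as a block, 2 members passed, where 5.61% of all genes (758) passed: Egln3 was higher (1.95% of all genes were) and Vegfa lower (3.66% of all genes were). At an unadjusted p of 0.05, 7 members passed in either fit (21.9%), compared with 18.1% of all genes without and 21.8% with the block. The members' shares are therefore near those of all genes. The median member difference was -0.04 (all tested genes -0.01), with 13 members above and 19 below 0 and a range from -0.77 to 0.96. The 95% interval lay within 1 log2 unit of 0 for 27 of the 32 members (96% of all tested genes) and within 0.5 for 21 (74.1% of all). In these bulk samples, fewer cells of a type and less RNA per cell cannot be told apart.

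**Figure D2:**
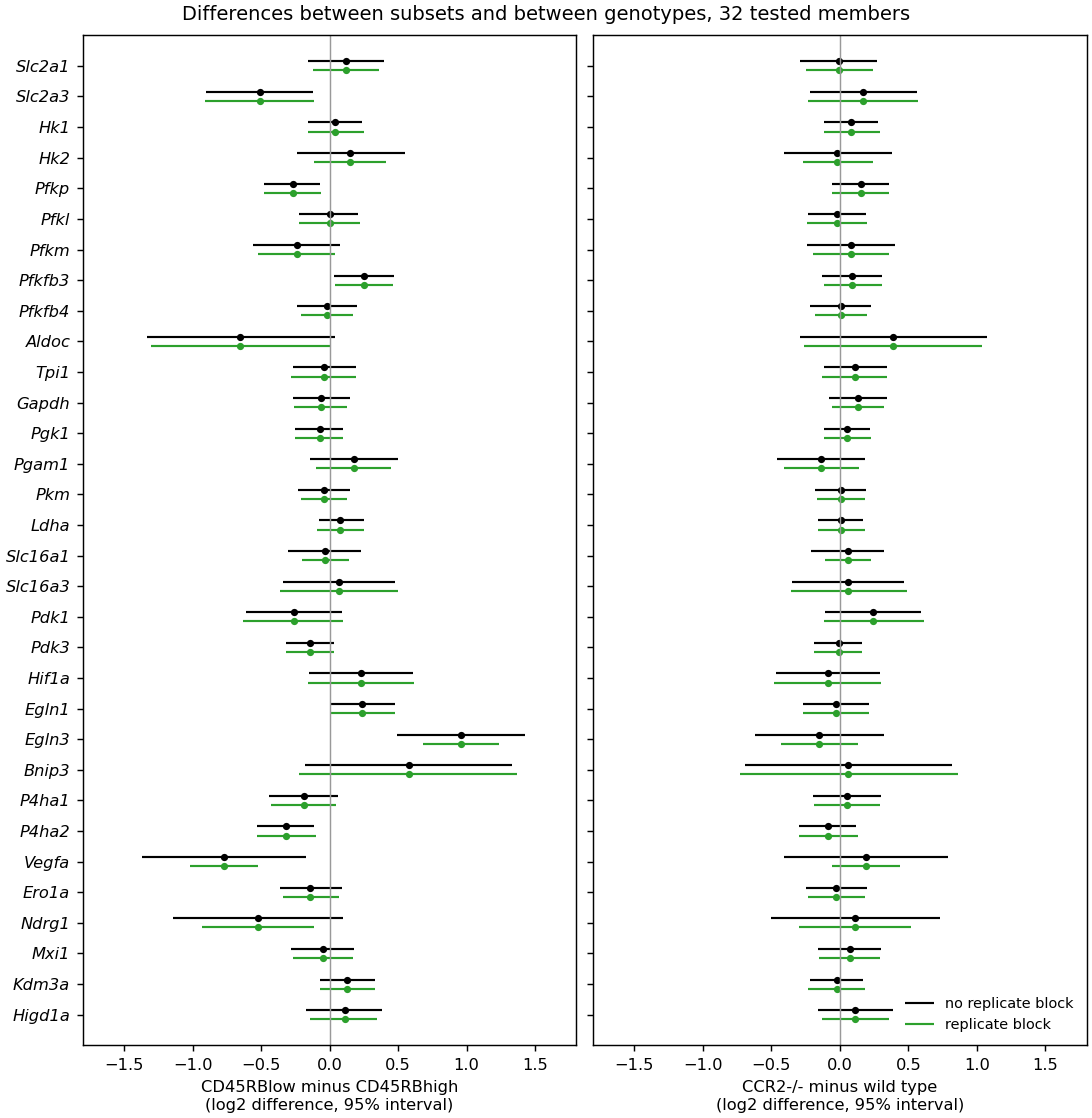
Log2 differences of the 32 tested genes, CD45RBlow minus CD45RBhigh averaged over genotypes on the left and CCR2-/- minus wild type averaged over subsets on the right, with 95% intervals from limma on 8 arrays. Black is the fit without a block and green the fit with the replicate block. For Egln3 (0.96) and Vegfa (-0.77) the green intervals are shorter and lie clear of 0 on the left, and all intervals on the right cover 0.

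Among the glucose transporters, Slc2a1, which carries the main basal uptake of activated T cells, lay between 11.08 and 11.61 on all arrays. Its subset difference was 0.12 (95% interval -0.16 to 0.40), higher in 4 of 4 pairs. The high-affinity transporter gene Slc2a3 read 9.15 and 8.48 on wild-type CD45RBhigh arrays (replicates 1 and 2), 8.19 and 8.52 on wild-type CD45RBlow, 9.13 and 8.93 on CCR2-/- CD45RBhigh, and 8.35 and 8.61 on CCR2-/- CD45RBlow. The subsets were apart on replicate 1 arrays (-0.87) and close on replicate 2 arrays (-0.14). Its averaged difference of -0.51 (SE 0.17, interval -0.90 to -0.12) had an adjusted p of 0.157 in limma, and was -0.34 without replicate 1 of wild-type CD45RBhigh.

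In the upper part of glycolysis, from glucose to triose phosphates, none of the 9 tested genes passed and the median difference was -0.02. The hexokinase genes Hk1 and Hk2, whose products trap glucose in the cell, lay between 8.69 and 8.97 and between 8.78 and 9.56 on all arrays and differed by 0.04 (interval -0.16 to 0.24) and 0.15 (-0.24 to 0.55). Of the phosphofructokinase subunits, Pfkp was 0.27 log2 units lower in CD45RBlow cells in 4 of 4 pairs (11.26 to 11.59 against 11.53 to 11.79, log2 difference -0.27, adjusted p = 0.156 in limma), Pfkm (7.59 to 8.24) differed by -0.24 (adjusted p = 0.417) and Pfkl (9.85 to 10.09) by 0.00 (interval -0.22 to 0.21). The bifunctional enzyme gene Pfkfb3, which makes the activator of phosphofructokinase, lay between 7.40 and 7.96 and was higher in 4 of 4 pairs by 0.25 (interval 0.03 to 0.47, adjusted p = 0.214). Its relative Pfkfb4 (5.40 to 5.69) differed by -0.02. Tpi1, the triose phosphate isomerase gene, lay between 11.96 and 12.28 and differed by -0.04.

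Aldoc, an aldolase gene known as a HIF target, had the member subset difference that changed most between replicate numbers. It read 7.78 and 6.91 on wild-type CD45RBhigh arrays, 6.75 and 6.97 on wild-type CD45RBlow, 8.48 and 7.31 on CCR2-/- CD45RBhigh, and 6.85 and 7.32 on CCR2-/- CD45RBlow. The 2 CD45RBhigh arrays of replicate 1 were the highest, and the other 6 arrays overlapped. The averaged difference was -0.65 (interval -1.33 to 0.04, adjusted p = 0.304 in limma), made of -1.33 in replicate 1 and 0.03 in replicate 2. It was -0.43 without replicate 1 of wild-type CD45RBhigh and -0.35 without replicate 1 of CCR2-/- CD45RBhigh.

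Of the lower enzymes, from triose phosphates to pyruvate, none of 4 passed. Gapdh lay between 12.69 and 12.99, Pgk1 between 12.49 and 12.67 and Pkm between 12.10 and 12.29, and their subset differences were -0.06 (interval -0.27 to 0.15), -0.07 (-0.25 to 0.10) and -0.04 (-0.23 to 0.15). These intervals exclude a difference of 0.5 log2 units between the subsets. Gapdh has many near-identical copies in the genome, so its clusters may read more than the gene, although all 3 of its clusters gave -0.06 to -0.05. Pgam1, the phosphoglycerate mutase gene, lay between 10.41 and 10.94 and differed by 0.18 (interval -0.14 to 0.50) in its brightest cluster. Its other cluster was dimmer (mean 9.28, compared with 10.64) and gave -0.01, so the level and the difference of Pgam1 depend on the cluster.

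Of the genes for lactate and pyruvate, none of 5 passed. Ldha, which encodes the main lactate dehydrogenase subunit, lay at 10.31 to 10.39 on the CD45RBhigh and 10.40 to 10.52 on the CD45RBlow arrays. Its groups did not overlap, but the difference was 0.08 (interval -0.08 to 0.25, adjusted p = 0.624 in limma). Pdk3, whose product inhibits pyruvate dehydrogenase, lay at 10.16 to 10.27 on CD45RBhigh and 10.00 to 10.15 on CD45RBlow arrays (difference -0.14, adjusted p = 0.373). Groups of 4 that did not overlap were found for 4 of 32 members (Ldha and Egln3 higher in CD45RBlow, Pdk3 and P4ha2 lower), compared with 14.3% of all tested genes. The related kinase gene Pdk1 (8.16 to 9.13) differed by -0.26 (adjusted p = 0.421), with -0.60 in replicate 1 and 0.07 in replicate 2. The lactate transporter genes Slc16a1 (11.31 to 11.64) and Slc16a3 (8.12 to 8.91) differed by -0.03 (interval -0.30 to 0.23) and 0.07 (-0.34 to 0.48).

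All 3 oxygen-sensing genes were above 0. Hif1a read 11.00 to 11.74 on CD45RBhigh and 11.39 to 11.64 on CD45RBlow arrays, a difference of 0.23 (interval -0.15 to 0.61, adjusted p = 0.532 in limma). The HIF prolyl hydroxylase gene Egln1 read 9.47 to 9.87 and 9.71 to 10.00, a difference of 0.24 (interval 0.00 to 0.48, adjusted p = 0.271), higher in 3 of 4 pairs.

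Egln3, the HIF prolyl hydroxylase gene also called PHD3, was 10.96 and 10.12 on wild-type CD45RBhigh arrays (replicates 1 and 2) and 11.44 and 11.21 on wild-type CD45RBlow arrays. On CCR2-/- arrays it was 10.45 and 9.98 in CD45RBhigh and 11.47 and 11.24 in CD45RBlow cells. All 4 CD45RBlow arrays were above all 4 CD45RBhigh arrays, and the CD45RBhigh values were the more scattered. Group means were 10.54 ± 0.60 and 11.33 ± 0.16 in wild type and 10.22 ± 0.33 and 11.36 ± 0.17 in CCR2-/- (SD, n = 2 each). The averaged difference was 0.96 (SE 0.20, interval 0.49 to 1.43), with an adjusted p of 0.0524 in limma without the block and 0.00813 with it. The 4 pair differences were 0.47 and 1.09 in wild type and 1.02 and 1.25 in CCR2-/-. With the block, the call held in 8 of 8 fits that left out 1 array (adjusted p = 0.0103 to 0.0436). Without the block, it passed after leaving out replicate 1 of wild-type CD45RBhigh (1.17, adjusted p = 0.0312) or of CCR2-/- CD45RBhigh (1.08, adjusted p = 0.0478).

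Within a genotype, the Egln3 difference was 0.78 in wild type (adjusted p = 0.434 in limma, 0.114 with the block) and 1.14, or 2.20-fold, in CCR2-/- (adjusted p = 0.163, 0.0307 with the block). The interaction of genotype and subset was 0.36 (interval -0.58 to 1.29, adjusted p = 1), so a difference between the genotypes was not shown. In wild type, 0 of 32 members passed (0.0888% of all tested genes, 0.77% with the block, where 0 members passed too), and 4 members passed at an unadjusted p of 0.05 (9.22% of all genes). In CCR2-/-, 0 passed without the block (0.333% of all genes) and Egln3 alone with it (1.45% of all genes), and 5 passed at an unadjusted p of 0.05 (12.3% of all genes).

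Vegfa, which encodes the vascular growth factor VEGF-A and is a classical HIF target, was 8.10 and 8.37 on wild-type CD45RBhigh arrays and 6.97 and 7.72 on wild-type CD45RBlow arrays. On CCR2-/- arrays it was 7.90 and 8.70 in CD45RBhigh and 7.29 and 8.01 in CD45RBlow cells. The lowest CD45RBhigh array was below the highest CD45RBlow array, but in each pair of the same genotype and replicate number CD45RBlow was lower, with differences of -1.13 and -0.65 in wild type and of -0.61 and -0.68 in CCR2-/-. Group means were 8.23 ± 0.19 and 7.34 ± 0.53 in wild type and 8.30 ± 0.56 and 7.65 ± 0.51 in CCR2-/- (SD, n = 2 each). The averaged difference was -0.77 (SE 0.26, interval -1.37 to -0.17), with an adjusted p of 0.167 in limma without the block and 0.0123 with it (SE 0.11). With the block, the call held in 6 of 8 fits that left out 1 array. It was lost without replicate 1 of wild-type CD45RBlow (adjusted p = 0.0723) and without replicate 1 of CCR2-/- CD45RBlow (adjusted p = 0.0596). Replicate 2 arrays were higher than replicate 1 arrays in 4 of 4 groups, by 0.27 to 0.80.

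**Figure D3:**
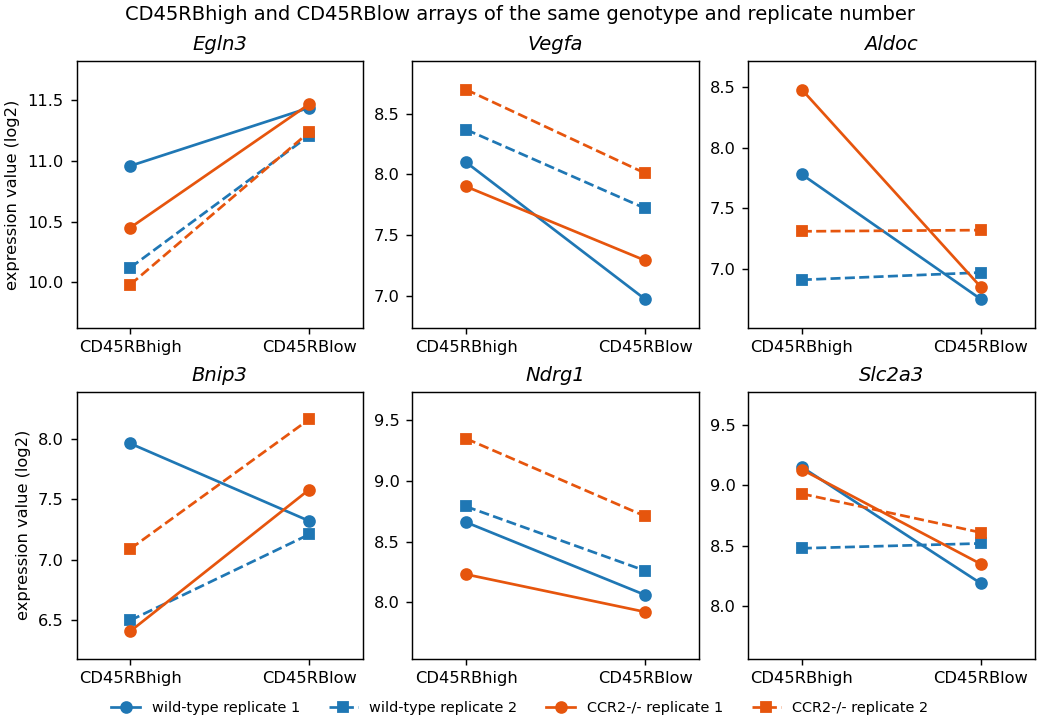
Expression values (log2, vertical axis, of the same width in all panels but at different levels) of the 6 tested genes with the largest averaged subset difference. Each line joins the CD45RBhigh and the CD45RBlow array of the same genotype (blue wild type, orange CCR2-/-) and replicate number (solid 1, dashed 2). All 4 lines go up for Egln3 and down for Vegfa and Ndrg1, 3 of 4 go up for Bnip3, and for Aldoc only the replicate 1 lines go down.

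The remaining hypoxia-response genes did not move in 1 direction, with a median of -0.14 over 9 tested genes, Vegfa included, and 0 passing without the block. Ndrg1, a stress-response gene induced by hypoxia, was 8.66 and 8.79 on wild-type CD45RBhigh arrays, 8.06 and 8.26 on wild-type CD45RBlow, 8.23 and 9.35 on CCR2-/- CD45RBhigh, and 7.92 and 8.71 on CCR2-/- CD45RBlow. It was lower in CD45RBlow in 4 of 4 pairs although the groups overlapped, with a difference of -0.52 (interval -1.14 to 0.10, adjusted p = 0.363 in limma, 0.138 with the block). The difference was -0.24 without replicate 2 and -0.80 without replicate 1 of CCR2-/- CD45RBhigh, and -0.32 without replicate 1 of CCR2-/- CD45RBlow. A dim second cluster of Ndrg1 (mean 4.94) gave 0.02.

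Bnip3, whose product takes part in removing mitochondria, was 7.96 and 6.50 on wild-type CD45RBhigh arrays, 7.32 and 7.21 on wild-type CD45RBlow, 6.41 and 7.09 on CCR2-/- CD45RBhigh, and 7.58 and 8.16 on CCR2-/- CD45RBlow. Replicate 1 of wild-type CD45RBhigh was the only CD45RBhigh array above its CD45RBlow partner (pair difference -0.64, the others 0.71, 1.16 and 1.07). The averaged difference was 0.58 (interval -0.18 to 1.33, adjusted p = 0.416 in limma), and the interaction was 1.09 (interval -0.43 to 2.60, adjusted p = 1). The averaged difference was 0.21 without replicate 2 and 0.94 without replicate 1 of wild-type CD45RBhigh.

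P4ha2, a collagen prolyl hydroxylase gene, was dim, at 4.73 to 5.09 on CD45RBhigh arrays and at 4.48 to 4.58, at the low-value limit, on CD45RBlow arrays. Its difference of -0.32 had an adjusted p of 0.116 in limma (0.0988 with the block) and understates any change that ends under the limit. Its relative P4ha1 (9.76 to 10.19) differed by -0.19 (interval -0.44 to 0.06). Ero1a lay between 11.31 and 11.65, the MYC antagonist gene Mxi1 between 7.72 and 8.23, the histone demethylase gene Kdm3a between 8.54 and 8.91 and the mitochondrial gene Higd1a between 5.75 and 6.35. Their differences of -0.14, -0.05, 0.13 and 0.11 had intervals within 0.5 log2 units of 0.

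The same sign in 4 of 4 pairs was seen for 12 of 32 members (33.8% of all tested genes): Slc2a1, Pfkfb3, Ldha and Egln3 were higher in CD45RBlow, and Pfkp, Pfkm, Gapdh, Pgk1, Pdk3, P4ha2, Vegfa and Ndrg1 were lower. For some genes, picked after their values were seen, the size differed between replicate numbers. For Slc2a3, Pfkm, Aldoc, Pdk1 and P4ha1, replicate 1 gave -0.87, -0.47, -1.33, -0.60 and -0.37. Replicate 2 gave -0.14, -0.01, 0.03, 0.07 and -0.02. These 5 were under -0.3 in replicate 1 and above -0.15 in replicate 2, as were 5.01% of all tested genes (677). Other members had the larger difference in replicate 2, among them Bnip3 (0.26 and 0.89), Egln3 (0.75 and 1.17) and Hif1a (0.02 and 0.44). The B cell marker list averaged highest on the CD45RBhigh arrays of replicate 1, at 5.83 and 6.33 (wild type and CCR2-/-). It averaged 5.27 and 5.35 on those of replicate 2, and 4.99 to 5.09 on the CD45RBlow arrays. Its member Cd79a read 4.99 and 5.86, then 3.90 and 4.24, then 3.77 to 3.91 on the same sets of arrays. CD8 T cell markers averaged 6.46 and 6.84, then 6.17 and 6.16, then 5.80 to 5.93. That list has 2 genes: Cd8a, near the low-value limit at 4.39 to 4.91 over the 8 arrays, and Cd8b1, at 6.97 to 8.78. Ighm, the brightest gene of the B cell list, was not highest in replicate 1 (at most 10.86, compared with 11.00 in replicate 2). The part of the B cell and CD8 T cell markers in these differences was not tested. What the replicate number stands for is not given by the labels.

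**Figure D4:**
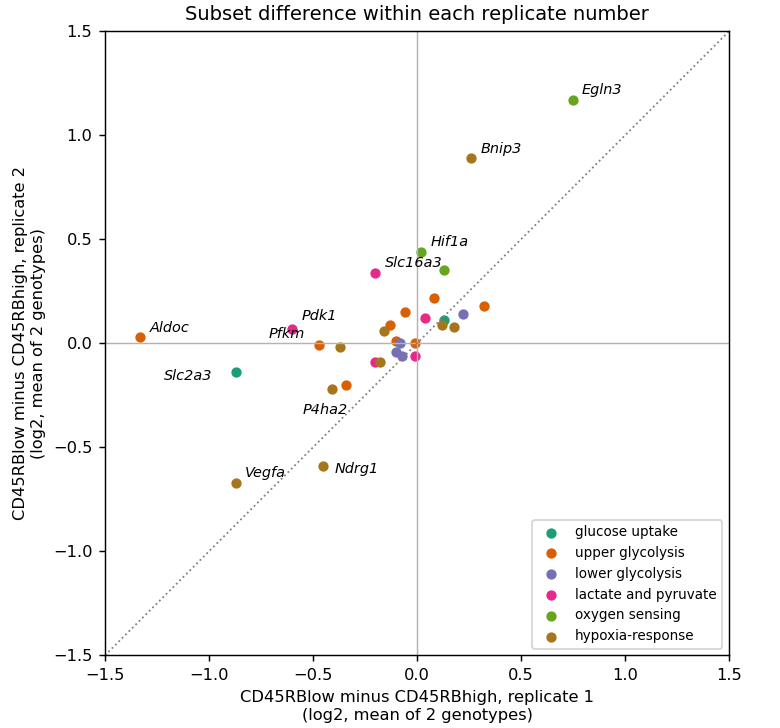
Subset difference (CD45RBlow minus CD45RBhigh, log2, mean of both genotypes) of the 32 tested genes within replicate 1 (horizontal axis) and within replicate 2 (vertical axis), coloured by role, with the dotted line marking equal values. Egln3 (0.75 and 1.17) and Vegfa (-0.87 and -0.67) lie far from 0 on both axes, whereas Aldoc, Slc2a3, Pdk1 and Pfkm lie to the left, close to 0 on the vertical axis.

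Some markers of other cells also differed between the subsets. Of all tested genes, 1.1% were called higher and 1.93% lower in CD45RBlow cells without the block. Of 5 regulatory T cell genes, 3 were called higher in CD45RBlow cells, and the list averaged 7.42 to 7.66 on CD45RBhigh and 8.57 to 9.40 on CD45RBlow arrays. The B cell list (8 genes found, 6 tested, 1 called lower) averaged 5.27 to 6.33 and 4.99 to 5.09, with Pax5 and Blk under the low-value limit. The macrophage and monocyte list (7 found, 2 tested, 1 called lower) averaged 5.27 to 5.63 and 5.12 to 5.14, with Lyz2, Csf1r, Adgre1, Itgam and Cd14 under the limit. CD8 T cell markers had 0 called. None was called among dendritic cell, NK cell, neutrophil or platelet markers. The part of these markers in the differences of Egln3, Vegfa and the other members was not tested.

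Loss of CCR2 was the other factor of the design. No member passed the test between CCR2-/- and wild-type cells: 0 of 32 members and 0 of 13508 genes passed in limma averaged over subsets (0% of all), with or without the block. At an unadjusted p of 0.05, 0 members passed, compared with 3.86% of all genes, and with the block 0 compared with 7.16%. Under each of the other settings tried, 0 members passed too. The largest differences were in Aldoc (0.39, interval -0.29 to 1.07), Pdk1 (0.24, -0.11 to 0.59), Vegfa (0.19, -0.41 to 0.79), Slc2a3 (0.17, -0.22 to 0.56), Pfkp (0.15, -0.06 to 0.36) and Egln3 (-0.15, -0.62 to 0.32), with adjusted p of 0.94 to 0.955. The interval lay within 1 log2 unit of 0 for 31 of 32 members, all but Aldoc (98.6% of all tested genes), and within 0.5 for 25 (82.5% of all).

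Hk1, Aldoc, Gapdh and Pdk1 were higher in CCR2-/- in 4 of 4 pairs, 4 of 32 members against 12.6% of all genes, and 0 members were lower in all pairs (6.35% of all). A dimmer Gapdh cluster (mean 7.54) gave -0.20, whereas its other clusters gave 0.13. The averaged genotype difference of Pgam1 was -0.14 in its brightest cluster and 0.25 in its other one (mean 9.28). The groups of 4 did not overlap for 0 members (1.67% of all). The median over members was 0.05 (all tested genes 0.02), with 21 of 32 members above 0 (57.2% of all genes). With each array centred on its median, which moves the all-gene median by -0.05, 16 were above 0 (39.2% of all genes). The count therefore depends on the scaling. In replicate 1, 11 of 32 members were above 0 (57.7% of all genes), and in replicate 2, 28 of 32 (54.2% of all), with medians of -0.03 and 0.13.

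In CD45RBlow cells, 30 of 32 members were above 0 for CCR2-/- against wild type (22 with centred arrays, against 57.4% and 42.2% of all genes), with a median of 0.12, compared with 0.03 for all genes. In CD45RBhigh cells the count was 15 (9 centred, against 54.9% and 41.4% of all genes), with a median of -0.02 (all genes 0.02). The interaction was above 0 for 28 members with either scaling (51.8% and 50.7% of all genes), with a median of 0.11 against 0.01. None of these single differences passed: 0 of 32 members and 0 of 13508 genes were called in CD45RBhigh, in CD45RBlow or for the interaction (0%), and 0 members had an unadjusted p under 0.05, compared with 2.62%, 2.21% and 1.18% of all genes. With the block the interaction of Mxi1, 0.46, had an unadjusted p of 0.0412, which 2.13% of all genes passed at 0.05, and an adjusted p of 1. Both genotype effects and the interaction share arrays, and members measured on the same arrays are not independent, so these counts describe the 8 arrays.

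The replicate number itself was tested in the blocked fit. It called 9 genes (0.0666% of all), among them Xist and 3 Y-linked genes, and 0 of 32 members. At an unadjusted p of 0.05, 5 members passed (16.2% of all genes): Vegfa (0.63, adjusted p = 0.182), Ndrg1 (0.55), Hk2 (0.36) and the lactate transporter gene Slc16a1 (0.24) were higher in replicate 2, and Egln3 (-0.44) was lower, each in 4 of 4 groups. The sign was the same in all 4 groups for 6 of 32 members, these and the lower Pfkfb4, compared with 26% of all genes.

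Other genes of the same pathways, taken from 5 related lists, gave few calls between the subsets, and all of them were lower in CD45RBlow cells. Among 22 tested genes of glycolysis and pyruvate metabolism outside the set, Eno3 and Eno2 fell (0 higher, 2 lower, median -0.06 against -0.01 for all genes), where 3.03% of all tested genes were called and 1.93% were lower. Eno3, the muscle enolase gene, lay at 9.37 to 10.22 on CD45RBhigh and 8.85 to 9.34 on CD45RBlow arrays (difference -0.63, SE 0.12, adjusted p = 0.0392 in limma). Eno2, the neuronal enolase gene, lay at 5.64 to 6.07 and 5.30 to 5.59 (difference -0.47, SE 0.10, adjusted p = 0.0487). The enolase genes are close relatives and Eno1 had no value here, so their probes may read more than the named gene.

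Of 29 tested genes of the HIF pathway outside the set, 1 fell and 0 rose without the block, and 4 fell with it (median -0.06), where 1.93% and 3.66% of all tested genes were called lower. Vldlr, a lipoprotein receptor gene, lay at 6.35 to 6.50 on CD45RBhigh and 4.91 to 5.54 on CD45RBlow arrays (difference -1.24, SE 0.15, adjusted p = 0.0111 in limma). With the block the hormone gene Stc2 (-0.79, adjusted p = 0.0175), the glycogen synthase gene Gys1 (-0.56, adjusted p = 0.0436) and the mTOR inhibitor gene Ddit4 (-0.50, adjusted p = 0.0442) passed too. Of 23 regulators around Myc, mTORC1 and nutrients, Eif4ebp1, which encodes a translation inhibitor that mTORC1 releases, fell from 11.22 to 11.66 on CD45RBhigh to 10.23 to 10.88 on CD45RBlow arrays (difference -0.87, adjusted p = 0.0435). The differences of Eno2, Eno3, Eif4ebp1 and Vldlr kept their sign when 1 array was left out. However, the call was lost in 8 of 8 such fits for Eno2, 7 for Eno3, 6 for Eif4ebp1 and 1 for Vldlr. The 1 for Vldlr left out replicate 1 of wild-type CD45RBlow. No such fits are given here for Stc2, Gys1 and Ddit4, which passed only with the block.

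No gene passed among 8 of the pentose phosphate pathway (median 0.00; 0 at an unadjusted p of 0.05 with or without the block) or among 24 of the tricarboxylic acid cycle and glutamine use (median -0.09; 5 at an unadjusted p of 0.05, and 8 with the block, where 18.1% and 21.8% of all genes passed). The smallest p-values there were those of Taldo1 (-0.15, adjusted p = 0.378 in limma) and Prps2 (0.16, 0.379), and of Idh2 (-0.39, 0.095) and Suclg1 (0.26, 0.137). Between genotypes, 0 genes of these 5 lists passed with or without the block, with list medians of 0.01 to 0.09.

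**Figure D5:**
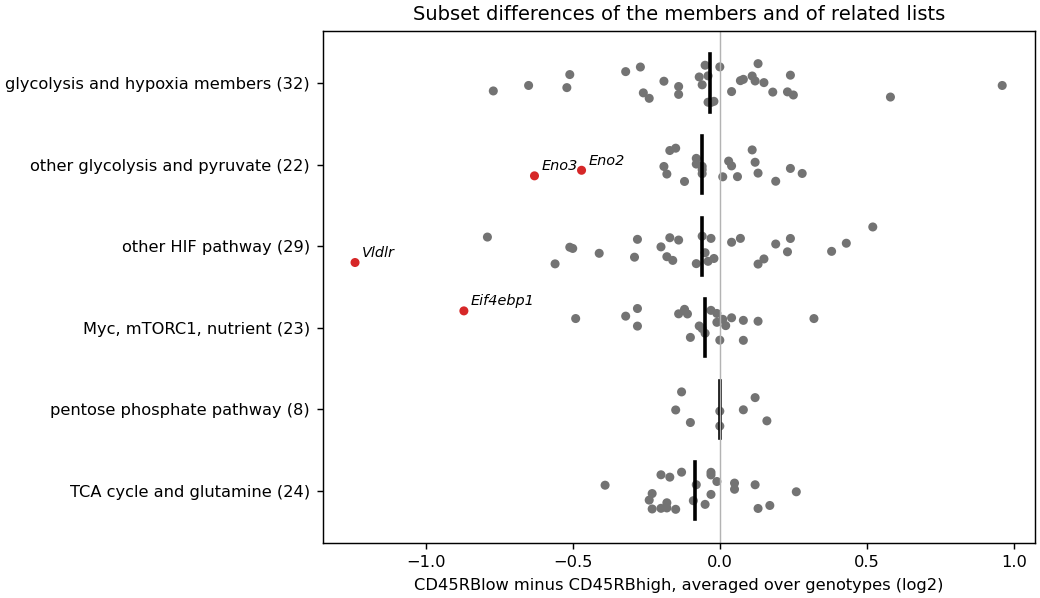
Subset differences (CD45RBlow minus CD45RBhigh, log2, averaged over genotypes) of the 32 tested members and of 5 lists of related genes, a point for each gene, with a vertical bar at each list's median and the number of tested genes in parentheses. Red points passed an adjusted p of 0.05 without the block. The medians lie between -0.09 and 0.00, and the 4 red points (Eno3, Eno2, Vldlr and Eif4ebp1) are all below 0.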

How the data were processed

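Expression was deposited by the authors on the log2 scale for 41034 transcript clusters of 8 Affymetrix arrays, made, per the submitters' processing notes, with Partek and RMA; versions, array build and annotation release are not given in the sources used here. RMA gives all arrays 1 distribution, which hides a shift common to most genes. Gene names came from the platform annotation (23521 clusters with 1 symbol, 1814 with several, 15699 unnamed), updated through RefSeq identifiers. Genes at or above the 40th percentile of an array on at least 2 arrays were tested (13508).

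Limma 3.58.1 in R 4.3.3 fitted a mean for each of the 4 groups (4 residual and 3.36 prior degrees of freedom), with 7 contrasts and two-sided p-values adjusted by Benjamini-Hochberg over all tested genes, at 0.05. Differences are CD45RBlow minus CD45RBhigh and CCR2-/- minus wild type. A fit with a replicate block was the alternative, along with no filter, the mean of a gene's clusters, centred arrays, trended robust moderation, array weights and leaving out each array. Replicate numbers were taken to pair arrays because all 6 correlations of their differences exceeded 0.1. The naming rule took members that passed in any comparison and the 6 with the largest difference in each averaged comparison; the other members are given beyond that rule, with their level and averaged subset difference. In the related lists, called genes, or the 2 with the smallest p, are named. The members and lists were chosen with earlier results of these data known. The calculations were tested on simulated data. Arrays have no depth, and their number limits the precision.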

Additional observations from a re-analysis of the deposited data

How the results depend on the processing

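The count of members called for the averaged subset effect was 0 in the fit as reported, 2 with the replicate block (Egln3 and Vegfa), 1 with centred arrays (Egln3, adjusted p = 0.0444) and 1 with trended robust moderation (Egln3, adjusted p = 0.0405). It ranged from 0 to 1 when 1 array was left out. The count for the subset effect in CCR2-/- was 1 with the replicate block (Egln3) and 0 under the other settings. All other member counts were 0 under every setting. The replicate numbers were taken to pair the arrays, which the labels do not state, and the block changed no other call of a member. The block combined with leaving out each array was added after the data were seen. Leaving out 1 array turned the sign of 3 averaged genotype differences, which then ranged from -0.01 to 0.39 for Vegfa, from 0.00 (just below 0) to 0.34 for Slc2a3 and from -0.36 to 0.06 for Egln3. The count of all called genes in the averaged subset effect was 409, compared with 758 with the block. Without wild-type CD45RBhigh replicates 1 and 2 it was 136 and 122, without wild-type CD45RBlow 39 and 112, without CCR2-/- CD45RBhigh 449 and 524, and without CCR2-/- CD45RBlow 69 and 239, each array left out singly. Groups of 2 are too small to test for outlying arrays, and members near the low-value limit (P4ha2, Ddit4l) have uncertain changes.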
